A study of Mus musculus with 4 samples.

Results

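Genes for activin subunits and for secreted antagonists of bone morphogenetic proteins (BMPs) or activins were followed in mouse aorta. The genes were Bmper, Grem1, Nog, Chrd, Fst, Fstl1, Fstl3, Inhba and Inhbb. They were chosen by name, and every probe set that the array's annotation pairs with exactly 1 of these symbols was taken. This gave 13 probe sets for 9 genes, of 45101 probe sets in all and 18193 genes with at least 1 probe set of their own.

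Aortas came from mice with a smooth muscle-specific loss of Smad4 (Smad4-KO) and from their wild-type littermates (WT), all collected at 6 weeks of age. RNA of 3 to 5 pooled vessels (400 ng) went onto each Affymetrix array, and each genotype had 2 arrays, described as biological replicates. The labels name neither the Cre line nor the deleted part of Smad4. The loss is described as specific to smooth muscle, and Smad4 in the other cells of the wall was not measured apart. The brightest of the Smad4 probe sets read 4394 and 3819 in WT, against 2676 and 3580 in Smad4-KO, without overlap. It differed by -0.40 ± 0.32 on the log2 scale and did not pass the test (adjusted p = 0.626). In the fit of every probe set by itself, another Smad4 probe set, which read 1213 and 1778 in WT, against 658 and 942 in Smad4-KO, differed by -0.90 ± 0.40 without overlap (adjusted p = 0.432). The remaining Smad4 probe set overlapped between genotypes (-0.43 ± 0.47, adjusted p = 0.822). A probe set outside the deleted part would check nothing.

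Activins are dimers of the inhibin beta subunits, made from Inhba (beta A) and Inhbb (beta B). They and the BMPs bind paired receptor kinases, which activate Smad proteins that act in the nucleus together with Smad4. Secreted antagonists hold the ligands away from their receptors. Noggin, chordin and gremlin bind mainly BMPs, and follistatin and its relative Fstl3 bind activins most tightly. In arteries BMP signalling is known for its part in endothelial function, vessel patterning and calcification.

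The opposite moves of Bmper and Fstl3 are the main result below, so the sequence before the start of each is shown. The RefSeq table (build GRCm38.p6) held promoters of 7 of the 9 genes, and the 250 bases upstream of the start are printed 5′ to 3′ on the gene's own strand. Capitals mark the only matches to the motifs searched in these windows, read on both strands. In the Fstl3 window, the first capitals are a match to CAGACA (a Smad-binding sequence) on the opposite strand, beginning 162 bases upstream. The last capitals match the TATA box motif, TATAAA, on the opposite strand, beginning 29 bases upstream. The Fstl3 window is chr10:79777024-79777273 (plus strand) and the Bmper window chr9:23222826-23223075 (plus strand).
Fstl3: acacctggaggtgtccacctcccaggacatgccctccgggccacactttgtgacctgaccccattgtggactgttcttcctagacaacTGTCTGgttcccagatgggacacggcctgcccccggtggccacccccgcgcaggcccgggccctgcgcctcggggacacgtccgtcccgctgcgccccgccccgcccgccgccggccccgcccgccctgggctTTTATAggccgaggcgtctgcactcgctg
Bmper: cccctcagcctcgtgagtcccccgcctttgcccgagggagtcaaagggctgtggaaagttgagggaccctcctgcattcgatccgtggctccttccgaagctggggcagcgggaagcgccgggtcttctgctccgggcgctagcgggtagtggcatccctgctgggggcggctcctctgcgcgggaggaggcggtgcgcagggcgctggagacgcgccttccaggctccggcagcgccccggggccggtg

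The search covered the palindromic Smad-binding element, GTCTAGAC, and a shorter Smad-binding sequence, CAGACA. It also covered a GC-rich sequence known to be bound by BMP Smads, GGCGCC. The last motifs were the TATA box given above and, by name, the CArG box of serum response factor. No match in these windows overlapped another. Of 32841 promoter windows of the same length, 0.167% held GTCTAGAC, 17.1% CAGACA, 9.59% GGCGCC, 12.4% TATAAA and 1.47% a CArG box. Of the 7 windows, 1 held CAGACA (Fstl3), 2 held GGCGCC (Grem1, beginning 78 bases upstream, and Chrd, 203 bases upstream) and 2 held TATAAA (Fstl3, and Inhba 91 bases upstream). GTCTAGAC and the CArG box matched in 0 of the 7. A match is a description of the letters and is not evidence that a factor binds there. In base composition Inhba stood alone, with a GC content of 43.2% and 3 CpG dinucleotides, while the other 6 windows had GC contents of 68.0% to 78.0% and 16 to 28 CpG dinucleotides. The median of all windows was 52.4% and 6.

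The tissue and the arrays were examined before the genes. The values are probe set signals on a linear scale, with medians of 111 to 137 per array. All 7 smooth muscle markers were measured, with summed signals of 128880 and 156770 in WT and of 59524 and 66957 in Smad4-KO. All 7 differences were negative. Of these, 4 were called lower by limma and 6 had an unadjusted p under 0.05. Summed macrophage markers were 13153 and 8760 in WT against 50395 and 60920 in Smad4-KO. All 8 differences were positive. Of these, 5 were called higher by limma and 8 had an unadjusted p under 0.05. The 8 hold Itgam, which was not called and read 53.5 and 46.6 in WT, against 273 and 112 in Smad4-KO. Its WT mean lay just below the signal filter, and its Smad4-KO signal alone carried it past. Summed nerve cell markers were 1255 and 1099 against 33766 and 25444, and 8 of 8 rose. Fibroblast and endothelial marker sums overlapped between genotypes, with 0 of 7 and 0 of 8 called by limma (0 and 1 at an unadjusted p under 0.05). Summed fast skeletal muscle markers were 497 to 921 on 3 arrays and 11084 on Smad4-KO replicate 2. No marker of the other 5 cell types named so far lay below 64 on every array. Markers of 4 further types were measured. Summed T cell markers were 409 and 261 in WT against 978 and 905 in Smad4-KO, and 1 of them lay below 64 on every array. Summed mesothelium markers were 172 and 204 against 482 and 303. Sums for Schwann cells and fat cells overlapped. Of those tested, 1 of 4 Schwann cell markers was called higher, and 0 of 3 T cell, 0 of 3 mesothelium and 0 of 5 fat cell markers were called. In whole tissue, fewer cells of a type and less RNA per cell cannot be told apart. The marker levels moved with genotype in the same arrays as every difference given below, and their part in those differences was not tested.

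The question for these ligand and antagonist genes was whether their signal changed when smooth muscle lacked Smad4. Of the 9 genes, 1 rose and 1 fell in Smad4-KO: Bmper was 5.49-fold higher and Fstl3 5.63-fold lower. The other 6 genes that could be tested did not pass, and Nog lay below the signal filter and was not tested. Over all 13645 genes tested with limma, 6.31% were called at an adjusted p of 0.05, 4.92% higher and 1.39% lower. In the remaining text each log2 difference (Smad4-KO minus WT, 2 arrays each) carries its limma standard error after the ± sign, and an interval is the 95% interval.

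**Figure D1:**
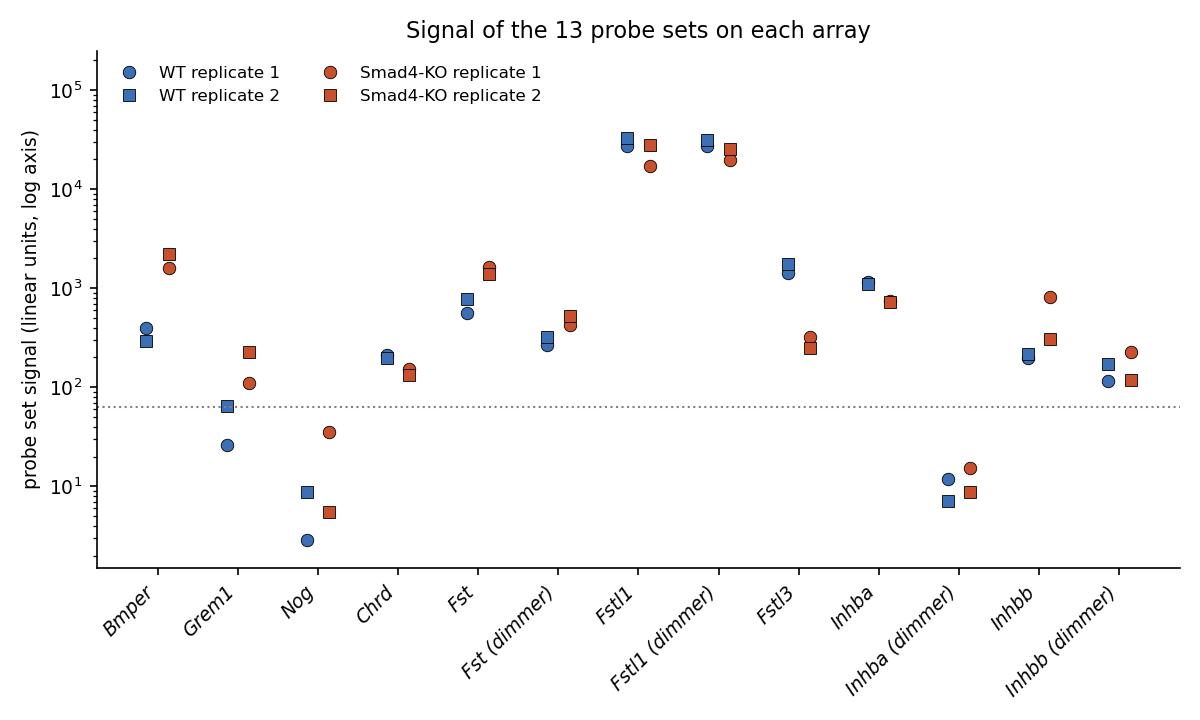
Probe set signal (linear units on a log axis) of each of the 13 probe sets, with blue points for WT and orange points for Smad4-KO, circles for replicate 1 and squares for replicate 2; the dotted line marks a signal of 64. Bmper lies at 293 to 401 in WT and 1589 to 2227 in Smad4-KO, Fstl3 at 1437 to 1759 and 250 to 319, and Nog stays below 64 on every array.

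Among the antagonists that bind BMPs, Bmper is a secreted protein with chordin-like repeats, first known from endothelial precursors, that can either restrain or promote BMP signalling. Its signals were 401 and 293 in WT (replicates 1 and 2) and 1589 and 2227 in Smad4-KO. The Smad4-KO arrays lay far above the WT arrays, while replicates differed 1.37-fold in WT and 1.40-fold in Smad4-KO. The log2 difference was 2.46 ± 0.35 (interval 1.58 to 3.34), which passed the test (adjusted p = 0.0224). In the 4 single pairs of a Smad4-KO and a WT array it was 1.99 to 2.93. Of all genes tested, 95.9% had a lower difference.

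The call for Bmper ended when either WT array was left out (adjusted p = 0.0724 without replicate 1 and 0.131 without replicate 2), with differences of 2.68 and 2.23. It also ended with no filter on signal (adjusted p = 0.0901) and when every probe set was tested by itself (adjusted p = 0.0704).

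Grem1 codes for gremlin, a cystine-knot protein that binds BMPs. It had the largest difference of the genes that did not pass. Its signals were 26.3 and 65.1 in WT, against 111 and 229 in Smad4-KO. The genotypes did not overlap, but the WT replicates differed 2.47-fold and the Smad4-KO replicates 2.06-fold, and the WT mean lay below the signal filter, so that the Smad4-KO signal alone carried the gene past it. The log2 difference was 1.94 ± 0.58 (interval 0.49 to 3.40), with an adjusted p of 0.139. With signals under 64 raised to 64 it was 1.30 (adjusted p = 0.181), and without WT replicate 1 it was 1.29 (adjusted p = 0.439).

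In both genotypes the Grem1 signal was lower on replicate 1 than on replicate 2. With the replicate number as a block the difference passed the test (adjusted p = 0.0165). Other measures split the arrays by number too. Xist, the RNA that coats the inactive X, read 15192 (WT) and 6223 (Smad4-KO) for replicate 1 but 90.0 and 135 for replicate 2. Summed fat cell markers read 66340 and 61040 for replicate 1, then 29545 and 30688 for replicate 2. Their part in the Grem1 values was not tested.

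Chrd codes for chordin, which binds BMPs until it is cleaved by tolloid proteases. It read 214 and 196 in WT, against 152 and 134 in Smad4-KO. The lower values all came from Smad4-KO and the replicates were close, but the difference was small, -0.52 ± 0.30 (interval -1.27 to 0.22, adjusted p = 0.447). It did not pass under any of 15 alternatives.

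Nog codes for noggin, a BMP antagonist of skeletal and neural development. It read 2.90 and 8.76 in WT, against 35.2 and 5.56 in Smad4-KO. The genotypes overlapped, and the highest value came from a single Smad4-KO array. The 4 signals all lay below 64, and a level for Nog was not detectable with this probe set. In the fit with no filter the difference was 1.47 ± 1.12 (adjusted p = 0.666).

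Among the follistatin family, Fstl3, a secreted and nuclear glycoprotein that binds activins and myostatin, fell. Its signals were 1437 and 1759 in WT, against 319 and 250 in Smad4-KO. The genotypes stood well apart, and replicates differed 1.22-fold in WT and 1.27-fold in Smad4-KO. The log2 difference was -2.49 ± 0.32 (interval -3.29 to -1.69, adjusted p = 0.0189), and the 4 single pairs gave -2.81 to -2.17. Of all genes tested, 0.476% had a lower difference.

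The call for Fstl3 ended in the same settings as that for Bmper: without WT replicate 1 (-2.64, adjusted p = 0.0697), without WT replicate 2 (-2.35, adjusted p = 0.110), with no filter (adjusted p = 0.0799) and with every probe set tested by itself (adjusted p = 0.0613). In that last fit 0 of the 11 tested probe sets of these genes were called by limma, against 0.782% of 26209 probe sets, and the lowest unadjusted p among them was 0.000906 (Fstl3). When arrays were instead blocked by their labelling controls, as the closing part describes, both genes had an adjusted p of 0.0559.

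Fst codes for follistatin, which binds activins almost irreversibly. The brighter of its probe sets read 568 and 778 in WT, against 1639 and 1386 in Smad4-KO. All Smad4-KO values were above all WT values, and the log2 difference of 1.18 ± 0.33 (interval 0.36 to 2.00) did not pass after adjustment (adjusted p = 0.116, unadjusted p = 0.0132). The dimmer Fst probe set read 267 and 321 in WT, against 424 and 524 in Smad4-KO. It too was higher on both Smad4-KO arrays, with a smaller difference of 0.69 ± 0.35 in the fit of every probe set (adjusted p = 0.50). The mean of both probe sets gave 0.93 (adjusted p = 0.245). Fst and Fstl3, which bind the same ligands, therefore had differences of opposite sign, and only that of Fstl3 passed.

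Fstl1 codes for a secreted glycoprotein of the SPARC family with a follistatin-like domain, abundant in cells of mesenchymal origin. Its signals were 27602 and 32693 in WT, against 17173 and 28142 in Smad4-KO, where the highest signal of any probe set on an array was 50167 to 73520. Smad4-KO replicate 2 lay within the WT range and replicate 1 below it. The difference was -0.45 ± 0.37 (interval -1.37 to 0.47, adjusted p = 0.639). Its other probe set read 27449 and 31686 in WT, against 19543 and 25317 in Smad4-KO, where both Smad4-KO arrays were lower, and gave -0.41 ± 0.35 in the fit of every probe set (adjusted p = 0.754). Without Smad4-KO replicate 1 the difference of the brighter probe set shrank to -0.09, and without Smad4-KO replicate 2 it was -0.81.

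Among the activin subunits, Inhba, which makes the beta A chain, had the closest replicates of these genes. Its brighter probe set read 1163 and 1096 in WT, against 744 and 733 in Smad4-KO. The Smad4-KO arrays were lower by a similar amount in every pair (-0.67 to -0.56), and the difference was -0.61 ± 0.29 (interval -1.34 to 0.11, adjusted p = 0.349). The limma standard error is several times the replicate spread of this gene (log2 SD 0.06 in WT and 0.01 in Smad4-KO) because limma draws each gene's variance toward that of all genes. The other Inhba probe set read 11.8 and 7.04 in WT, against 15.3 and 8.77 in Smad4-KO, below 64 on every array, and could not show a difference. Averaging it with the brighter probe set left -0.13.

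Inhbb makes the beta B chain. Its brighter probe set read 198 and 215 in WT, against 815 and 307 in Smad4-KO. Smad4-KO was higher on each array, but its replicates differed 2.66-fold, against 1.09-fold in WT. The log2 difference was 1.28 ± 0.52 (interval -0.02 to 2.57, adjusted p = 0.265). The size of the difference rested on Smad4-KO replicate 1: without it the difference was 0.57 (adjusted p = 0.519), and without Smad4-KO replicate 2 it was 1.98 and passed (adjusted p = 0.0482). The dimmer Inhbb probe set read 115 and 171 in WT, against 227 and 117 in Smad4-KO. There the genotypes overlapped and the difference was 0.22 ± 0.48 in the fit of every probe set (adjusted p = 0.926). The subunit genes thus had differences of opposite sign for their brighter probe sets, and neither passed.

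**Figure D2:**
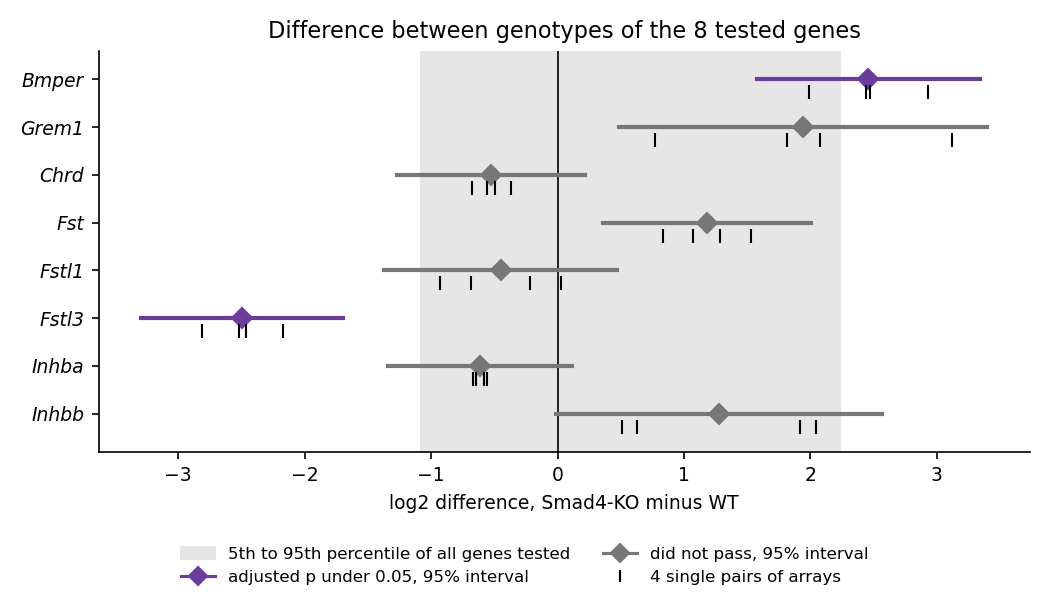
Log2 difference (Smad4-KO minus WT) of the 8 tested genes, each by its brightest probe set, with diamonds for the limma estimate, lines for the 95% interval, ticks for the 4 single pairs of a Smad4-KO and a WT array, and a grey band from the 5th to the 95th percentile of all genes tested (-1.08 to 2.23). Bmper (2.46) and Fstl3 (-2.49), in purple, passed the test and lie outside the band, and the other 6 lie inside it.

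The genotypes did not overlap for 7 of the 8 tested genes, with Smad4-KO above WT for 4 and below for 3. Among all genes tested this held for 47.3%, 25.9% higher and 21.4% lower. The median log2 difference of the 8 genes was 0.37, against -0.01 for all genes tested, and the median size of the difference regardless of sign was 1.23 against 0.37. At an unadjusted p under 0.05, 4 of the 8 passed (Bmper, Grem1, Fst and Fstl3), against 19.3% of all genes. These figures describe the genes that passed the signal filter, which Grem1 did through its Smad4-KO signal, and not all 9.

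**Figure D3:**
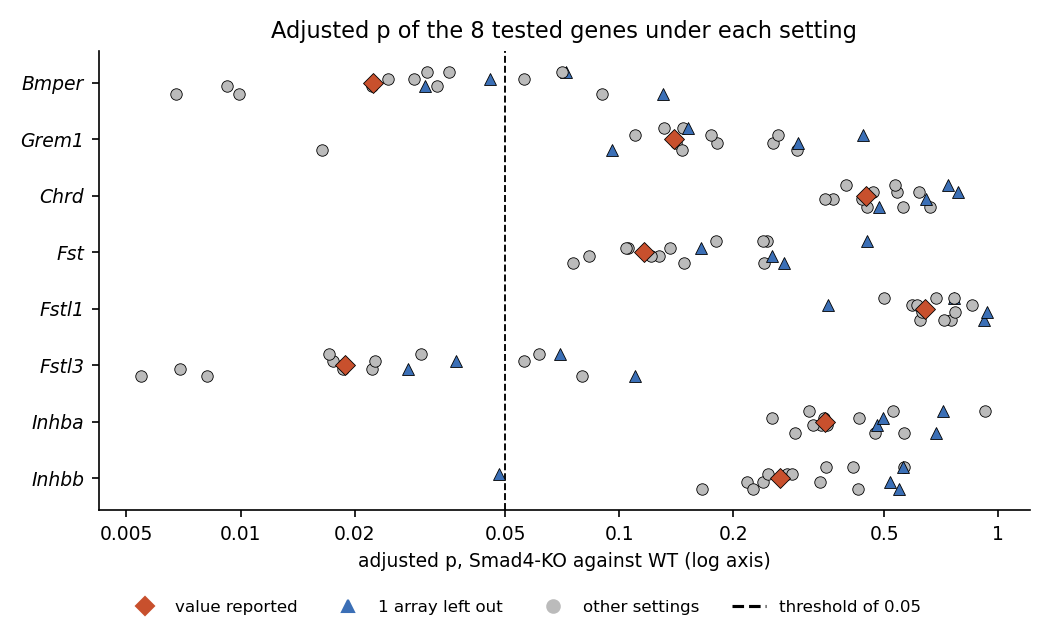
Adjusted p (log axis) of each tested gene as reported (orange diamonds), with 1 array left out (blue triangles) and under the other settings (grey points); the dashed line is the threshold of 0.05. Bmper and Fstl3 passed under 11 of their 16 alternatives (adjusted p from 0.00678 to 0.131 and from 0.00546 to 0.110), Grem1 under 1 of 15, Inhbb under 1 of 16, and Chrd, Fst, Fstl1 and Inhba under 0.

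Of the genes ranked, Pvt1 and Inpp5d had values that followed Bmper most closely over the 4 arrays. Pvt1 is a long noncoding RNA gene and Inpp5d a phosphoinositide phosphatase of blood cells. Symbols ending in Rik, starting with LOC, or starting with Gm, BC, AI, AW, AU, C or D and a digit were not ranked. This leaves out predicted and unnamed genes, and also any named gene of that form. Likeness was measured as the Euclidean distance between log2 values after each gene was centred on its mean. It was 0.06 for Pvt1, which read 97.9 and 68.9 in WT, against 385 and 517 in Smad4-KO. It was 0.08 for Inpp5d, which read 203 and 153 in WT, against 808 and 1082 in Smad4-KO. Nearest to Fstl3 were Ptprz1, a receptor tyrosine phosphatase (distance 0.11), and Kcnmb1, the smooth muscle subunit of the large-conductance potassium channel (0.12). Ptprz1 read 5348 and 6273 in WT, against 1141 and 977 in Smad4-KO, and Kcnmb1 1353 and 1825 in WT, against 334 and 255 in Smad4-KO. With only 4 arrays such likeness is common: 99 of the ranked genes lay within 0.5 of Bmper and 34 within 0.5 of Fstl3.

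The rest of the pathway was described with 6 lists of 62 other genes, of which 56 had a probe set of their own and 45 were tested. Over these lists 2 genes rose and 6 fell, 17.8% of those tested, beside 6.31% of all genes. This count holds Fstl5, which passed the signal filter only through Smad4-KO and so had to differ. Their median log2 difference was -0.21.

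The other secreted antagonists and BMP binding proteins moved in both directions, as the genes above did: of 13 tested, 2 rose and 2 fell, with a median of -0.26. Of the 13, 8 had an unadjusted limma p under 0.05, against 19.3% of all genes. Fstl5 and Dand5 are among the 8, and each passed the signal filter through a single genotype. Dand5 read 117 and 109 in WT, against 67.2 and 22.9 in Smad4-KO, and its WT signal alone carried it past. Its difference was -1.52 ± 0.55, and -0.78 with signals under 64 raised to 64. Sostdc1, a secreted antagonist of BMP and Wnt ligands, read 149 and 178 in WT, against 723 and 804 in Smad4-KO. It rose 4.68-fold (2.23 ± 0.30, adjusted p = 0.0205), with all Smad4-KO values far above WT. Fstl5, a follistatin-like protein, read 48.7 and 8.99 in WT, against 725 and 421 in Smad4-KO. With a floor of 64 on every signal it rose by at least 8.63-fold (adjusted p = 0.0232, against 4.72 ± 0.83 and an adjusted p of 0.0361 without that floor), and both of its WT signals lay under that floor.

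Smoc1, a matricellular protein of the SPARC family that can inhibit BMP signalling, read 4443 and 6028 in WT, against 1088 and 743 in Smad4-KO. It fell 5.76-fold (-2.53 ± 0.36, adjusted p = 0.0219), a size close to that of Fstl3. Vwc2, a BMP binding protein with chordin-like repeats, read 1155 and 902 in WT, against 300 and 260 in Smad4-KO and fell 3.66-fold (-1.87 ± 0.31, adjusted p = 0.0329). Leaving out either WT array ended the calls of Sostdc1 (adjusted p = 0.0989 and 0.102), Smoc1 (0.0722 and 0.128) and Vwc2 (0.157 and 0.135). Fstl5 was no longer called without WT replicate 2 (0.0740) or Smad4-KO replicate 1 (0.0751), and Vwc2 was lost without either Smad4-KO array as well (0.0585 and 0.0741) and with the mean of its probe sets (0.212).

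Among the ligands no gene was called by limma. Of 3 other inhibin and activin class genes tested, 0 passed (median 0.51). Nodal, a ligand of embryonic patterning, had 0.52 ± 0.36 (adjusted p = 0.566) and Inhbc, the beta C subunit of liver, 0.51 ± 0.61 (adjusted p = 0.769), with highest signals of 106 and 124. Inhbc read 50.7 and 43.8 in WT, against 124 and 36.6 in Smad4-KO. Its WT mean lay below the signal filter, and Smad4-KO replicate 1 alone carried it past. The list median of 0.51 is the difference of Inhbc itself. Of 6 BMP ligands tested 0 passed (median 0.14). Gdf2, a circulating ligand made in liver, read 60.7 and 30.6 in WT, against 198 and 152 in Smad4-KO. Both WT signals lay under 64 and its Smad4-KO signal alone carried it past the filter. With the floor of 64 its difference was 1.44 (adjusted p = 0.0557), and without that floor 2.01 ± 0.43 (adjusted p = 0.0605). Bmp6, a ligand of iron regulation made by endothelium, read 917 and 884 in WT, against 548 and 207 in Smad4-KO (-1.42 ± 0.51, adjusted p = 0.212). The Smad4-KO replicates were far apart: without replicate 1 of that genotype Bmp6 was at -2.12 and passed (adjusted p = 0.0426), and without replicate 2 it was at -0.72 (adjusted p = 0.403). At an unadjusted p under 0.05, 3 of the 6 BMP ligands, Gdf2 among them, and 0 of the other 3 genes passed.

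The proteases that cleave chordin were tested for 2 of 3 genes and 0 passed (1 at an unadjusted p under 0.05, Tll1). Tll1 read 21.1 and 34.2 in WT, against 264 and 88.2 in Smad4-KO. It too passed the filter only through Smad4-KO. Its difference was 1.25 with the floor of 64 (adjusted p = 0.341) and 2.51 ± 0.60 without it (adjusted p = 0.0786), and 3.30 without Smad4-KO replicate 2, where it passed (adjusted p = 0.0235). Bmp1, the founding member of the family, read 1746 and 2048 in WT, against 2033 and 2405 in Smad4-KO (0.23 ± 0.31, adjusted p = 0.804). Of 11 receptors 0 rose and 1 fell (median -0.21), and 2 had an unadjusted limma p under 0.05, against 19.3% of all genes. The fall was that of Bmpr1b, a type I BMP receptor, which read 783 and 1751 in WT, against 126 and 186 in Smad4-KO (-2.93 ± 0.48, adjusted p = 0.0316). Its call ended without Smad4-KO replicate 1 (adjusted p = 0.0668) and without WT replicate 2 (0.124). With the mean of its probe sets the difference was -1.77 and the call ended (adjusted p = 0.0731). The other receptor at an unadjusted p under 0.05 was Bmpr1a (-1.47 ± 0.37), which was not called (adjusted p = 0.0914). Among the activin receptors, Acvr1b, Acvr2a and Acvr2b had differences of 0.40, -0.11 and -0.44 that did not pass. Acvr1c, with 0.05 ± 0.80, did not pass either.

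Of 10 genes downstream of these receptors 0 rose and 3 fell, and 9 of the 10 differences were negative (median -1.20). An unadjusted limma p under 0.05 was found for 7 of the 10, against 19.3% of all genes. Atoh8, a transcription factor, read 284 and 204 in WT, against 60.3 and 51.1 in Smad4-KO, a fall of at least 3.76-fold with the floor of 64 (adjusted p = 0.0352, and 0.0276 without that floor). Smad6, an inhibitory Smad, read 1063 and 807 in WT, against 275 and 187 in Smad4-KO, a 4.08-fold fall (adjusted p = 0.0361). Id4, an inhibitor of DNA binding, read 2147 and 2292 in WT, against 618 and 621 in Smad4-KO, a 3.58-fold fall (adjusted p = 0.0282). Leaving out WT replicate 1 ended all of these calls (adjusted p from 0.119 to 0.160), and so did leaving out WT replicate 2 (0.105 to 0.170). Without Smad4-KO replicate 2 they were not called either (0.0581 to 0.0778), nor was Id4 without Smad4-KO replicate 1 (0.0616). When probe sets were averaged, the calls of Smad6 (0.0532) and Id4 (0.0725) ended.

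**Figure D4:**
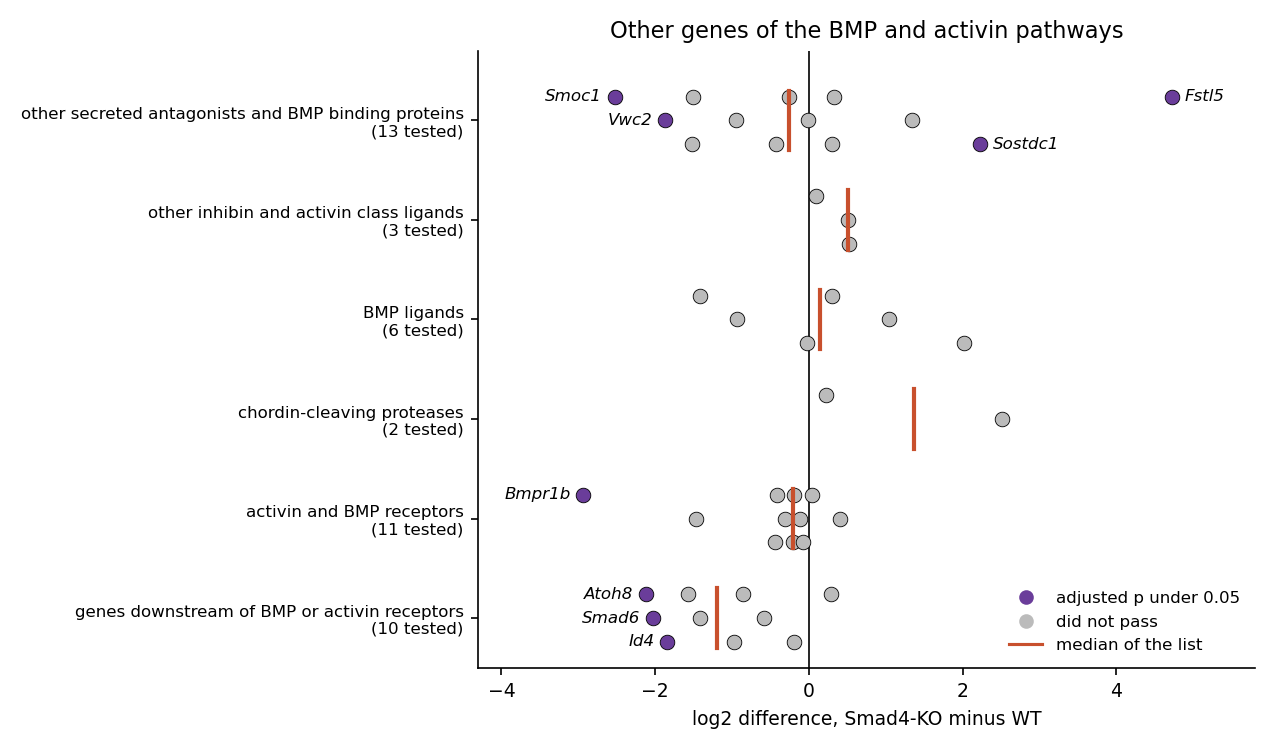
Log2 difference (Smad4-KO minus WT) of every tested gene of the 6 lists of other pathway genes, with purple points for genes at an adjusted p under 0.05, grey points for the rest, and an orange line at each list's median; vertical position within a list has no meaning. The 13 other secreted antagonists hold called genes on both sides (Smoc1 at -2.53, Fstl5 at 4.72 without a floor), while the called receptors and downstream genes all lie on the lower side.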

How the data were processed

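The authors deposited 1 linear intensity per probe set and array. The submitters' processing notes name Affymetrix Expression Console and RMA. RMA gives log2 values, whereas these values are not logged: 253 to 324 per array are under 1, and each array's trimmed mean (2% off each end) is 500. Detection calls were not used here.

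Outside 64 controls, 34945 probe sets have 1 symbol; 932 with several and 9160 with none were left out. All 9 genes matched RefSeq by identifier, which served for names. Each gene took the values of its brightest probe set (by mean log2), and genes below the 25th percentile (5.64) were left out. The test of genotype was limma's (lmFit and eBayes; limma 3.58.1 under R 4.3.3), two-sided, with Benjamini-Hochberg adjustment over 13645 genes and a threshold of 0.05. The procedure was tested on simulated data. The number of arrays limits the precision. Python 3.11.15 with pandas 2.3.3 and matplotlib 3.10.9 served for tables and plots.

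Earlier results of these data were known when the genes, lists, alternatives and naming rule were chosen. That rule names all 9 genes, Smad4, up to 4 called genes of each pathway list (otherwise the 2 with the lowest p) and the 2 genes nearest to each called gene. For the nearest genes, symbols of predicted or unnamed form were left out. Acvr1b, Acvr1c, Acvr2a, Acvr2b, Bmpr1a, Dand5, Itgam and Xist were named beyond it. Alternatives changed the scaling (quantile, cyclic loess, median centring), the filter (none, 50th percentile), the floor (64), the probe sets (their mean, or each by itself), the model (trend and robust eBayes, array weights, blocks for replicate number or labelling pair), and the threshold: an adjusted p of 0.10. Each array was also left out in turn. The genotype then has a lone array, assumed to vary like the other genotype.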

Additional observations from a re-analysis of the deposited data

How the results depend on the processing

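All 8 tested genes kept their direction under every alternative run. The number of the 9 genes called fell from 2 to 0 with no filter and with the labelling-pair block, and lay between 0 and 3 when 1 array was left out. Bmper stayed at 2.46 (adjusted p = 0.0901, 0.0559 and 0.0704) and Fstl3 at -2.49 (adjusted p = 0.0799, 0.0559 and 0.0613) with no filter, the labelling-pair block and every probe set by itself, and they ranged from 2.21 to 2.70 and from -2.67 to -2.32 with 1 array left out. Inhbb ranged from 0.57 to 1.98 there, and Grem1, at 1.94, was called with the replicate block (adjusted p = 0.0165). Of these genes' probe sets 0 were called, but 2 were with a filter at the 50th percentile, with eBayes trend and robust, or at an adjusted p of 0.10. The labelling pairs join WT replicate 1 with Smad4-KO replicate 2 (3' to 5' ratio of the Dap spike 10.02 and 14.1) and WT replicate 2 with Smad4-KO replicate 1 (2.96 and 3.62).

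Over all genes, 861 calls became 1321 with the replicate block, 518 with the mean of probe sets, 1403 at an adjusted p of 0.10, and 0 with no filter (2788 at an unadjusted p under 0.05) or with the labelling-pair block (2658). With 1 array left out they were 0 to 808, with 0 without WT replicate 2 (1791 at an unadjusted p under 0.05) and 270 without WT replicate 1. The 8 calls of the pathway lists became 4 with the mean of probe sets, 13 at an adjusted p of 0.10, 0 with no filter or the labelling-pair block, and 0 to 6 with 1 array left out. Inhbc ranged from -0.36 (without Smad4-KO replicate 1) to 1.39 with 1 array left out, and Bmp1 turned to -0.49 with the mean of probe sets. With median centring the median over all genes was -0.16, and relative to it no sign among the 8 genes turned. Why these values moved was not tested. The labels do not say what a replicate number shares. Over all genes the deviations of same-numbered arrays correlated at -0.01, although Xist and the fat cell markers split by number; whether the numbers pair the arrays is not known, and the replicate block stayed an alternative.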
